A study of Mus musculus with 10 samples.

Results

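The immunoglobulin light chain loci Igk and Igl were examined for lost or gained DNA in 10 mouse leukemias. Members were all non-control array probes whose mm9 position lay between 67500000 and 70680000 on chromosome 6, the kappa locus Igk, or between 19020000 and 19265000 on chromosome 16, the lambda locus Igl. This rule used positions only and found 270 probes in Igk and 25 in Igl, together 295 of 402346 placed probes, 382487 of them on autosomes. The leukemias were driven by BCR-ABL1, an oncogenic fusion kinase, and came from 5 Ikzf1+/+ and 5 Ikzf1+/- samples, where Ikzf1 encodes Ikaros, a transcription factor of lymphocytes. Tumour DNA of GFP-positive bone marrow cells carried the dye Cy5 and non-leukemic DNA the dye Cy3 on every array, with no dye swap. The labels call this normal DNA bone marrow matched for stage, and the design text names B220-positive B cells. Whether the same normal DNA was used for both genotypes is not given in the sources used here, so a difference between genotypes can be one of tumour or of normal DNA. Neither the vector of BCR-ABL1 and GFP nor the animal behind each sample is given in the sources used here, so p-values reflect only how these samples spread, which may be technical.

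A light chain gene is assembled in B-cell precursors when the RAG recombinase joins a variable (V) to a joining (J) segment upstream of a constant (C) segment. In Igk the J segments and the constant segment stand together at one end of a long array of V segments in either orientation, so that joining removes the DNA between V and J or inverts it, and later joinings can use V segments farther away. Igl is short in the mouse and holds few segments. The GRCm38 gene table, used for names and order only, lists 102 Igkv segments and 60 Igkv pseudogenes, then Igkj1 to Igkj5 and Igkc. For Igl it lists 3 V, 3 J and 3 C segments, beside 2 J and 1 C marked as pseudogenes. No probe was assigned to a segment. The J and C end of Igk was taken as the distal bound of the locus on chromosome 6, and distances are measured from there to the near end of each probe.

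Every value is a log2 ratio of tumour over normal DNA, centred on the autosomal median of its array. Loss of 1 of 2 copies in all cells would give -1 and a gain to 3 copies +0.58, while a loss in some of the cells gives a smaller value. Because the normal DNA is of the B lineage per the design text, a ratio of 0 means an equal dose in both, not an unrearranged locus. Probes lay 9.33 kb apart in the median in Igk, with 1 gap of 80.8 kb, and 9.50 kb apart in Igl, against 5.34 kb over all autosomes. All 295 probes gave a value on all 10 arrays. In Igk 249 of 270 probes and in Igl 25 of 25 passed the scanner's test against background, and were unsaturated, in both channels of every array. The median Cy5 signal of tumour DNA ranged from 88.4 to 159 on Ikzf1+/+ and from 199 to 225 on Ikzf1+/- arrays, and was lowest on the array of Ikzf1+/+ tumour 1. The SD of probe noise was 0.22, 0.22, 0.18, 0.20 and 0.21 in Ikzf1+/+ leukemias 1 to 5 and 0.18, 0.17, 0.17, 0.19 and 0.19 in Ikzf1+/- leukemias 1 to 5. The part of these channel differences in the results below was not tested.

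No loss or gain of Igk or Igl was called in any of the 10 tumours. A call needed 5 or more probes of a segment at least 0.3 from 0 in the mean. Over all arrays, 0.0968% of autosomal probe values lay in called losses and 0.660% in called gains. At the heavy chain locus Igh, which is rearranged before the light chains in B-cell development, the same procedure called losses in 9 of 10 tumours, 5 Ikzf1+/+ and 4 Ikzf1+/-. The Igh probes, 356 in all, had means of -0.28 ± 0.14 (Ikzf1+/+) and -0.13 ± 0.15 (Ikzf1+/-) (SD, n = 5 per genotype). In 7 of 10 tumours Igk lay within a single segment that reached beyond both its ends, and Igl did so in 10 of 10.

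In the mean over all its probes, Igk lay slightly above the normal DNA, but not in every part. The nearest 100 kb to the J and C end averaged -0.023 over all tumours, as followed below. The Igk mean over 270 probes was 0.070, 0.021, 0.046, 0.075 and 0.018 in Ikzf1+/+ leukemias 1 to 5. In Ikzf1+/- leukemias 1 to 5 it was 0.031, 0.041, -0.0019, 0.0089 and 0.043. Thus 9 of 10 tumours lay above 0 and the genotypes overlapped, with Ikzf1+/+ tumours 1 and 4 highest and Ikzf1+/- tumour 3 lowest. Over all 10 tumours Igk lay at +0.035 (SE 0.0071), in limma on stretches as long as Igk over all autosomes (adjusted p = 0.00187). Over the autosomes 58.0% of 779 stretches differed from the normal DNA, 156 being higher, as Igk was, and 296 lower. The means were +0.046 ± 0.027 in Ikzf1+/+ (limma adjusted p = 0.00277) and +0.024 ± 0.020 in Ikzf1+/- tumours (SD, n = 5 per genotype, limma adjusted p = 0.142). The difference between genotypes was -0.022 (SE 0.014, Ikzf1+/- minus Ikzf1+/+, limma adjusted p = 0.250), while 26.2% of stretches passed that test, 4.36% of all being lower in Ikzf1+/-. It passed after normexp background correction (-0.057, limma adjusted p = 0.0199), where 3 of 779 stretches (0.385%) passed as lower and 206 as higher in Ikzf1+/-. Slide as a fixed block gave +0.012 (limma adjusted p = 0.881). Of 5 slides only 1 held both genotypes, so this value is 1 tumour against 1, Ikzf1+/- tumour 1 at 0.031 and Ikzf1+/+ tumour 5 at 0.018.

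The DNA next to Igk lay lower. With each array centred on these flanks, Igk was raised over all tumours (+0.063, limma adjusted p = 6.84e-05). This centring raises the mean of every stretch alike, and 50.4% of 779 then passed as higher. The 143 probes of the 1 Mb on the proximal side averaged -0.047 ± 0.020 in Ikzf1+/+ and -0.019 ± 0.016 in Ikzf1+/- tumours. The 159 probes of the distal side averaged -0.018 ± 0.032 and -0.018 ± 0.014 (SD, n = 5 per genotype). Igk exceeded its flanks in 10 of 10 tumours. The excess was 0.064, 0.068, 0.10, 0.12 and 0.041 in Ikzf1+/+ leukemias 1 to 5 and 0.039, 0.065, 0.017, 0.022 and 0.074 in Ikzf1+/- leukemias 1 to 5. Ikzf1+/+ tumours 3 and 4 stood highest and Ikzf1+/- tumours 3 and 4 lowest, and the genotypes overlapped. The mean excess of +0.061 fell to +0.023 after normexp correction. The rest of chromosome 6 lay at -0.015 ± 0.0096 over all tumours (SD, n = 10).

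**Figure D1:**
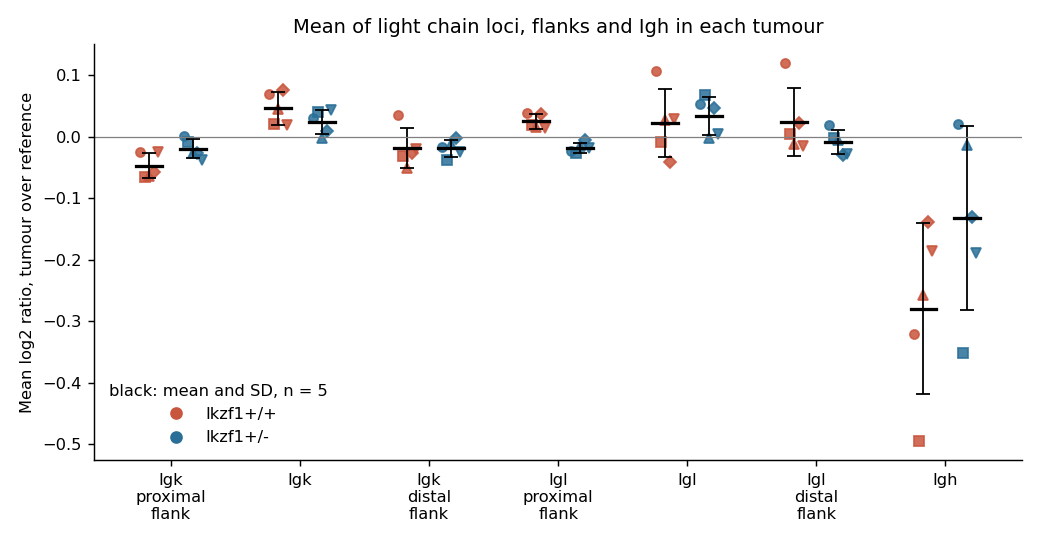
Mean log2 ratio of tumour over normal DNA (vertical axis) in each of 5 Ikzf1+/+ (red) and 5 Ikzf1+/- tumours (blue) for Igk, Igl, the 1 Mb on either side of each, and Igh. Marker shapes stand for tumour numbers, and black bars give mean and SD. The light chain loci lie within 0.11 of 0 in every tumour, whereas Igh reaches -0.49 in Ikzf1+/+ tumour 2.

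Igl lay slightly above the normal DNA in the mean, but with all tumours this did not pass in limma. In 7 tumours it lay above the normal DNA and in the others below. The SE was larger for Igl than for Igk (0.014 against 0.0071). The test therefore does not show that Igl equalled the normal DNA, and whether Igl differed from Igk was not tested. Its mean over 25 probes was 0.11, -0.0089, 0.027, -0.042 and 0.028 in Ikzf1+/+ leukemias 1 to 5. It was 0.053, 0.068, -0.0013, 0.047 and 0.0051 in Ikzf1+/- leukemias 1 to 5. Ikzf1+/+ tumours held both the highest and the lowest value, so the genotypes overlapped in full. Over all tumours Igl lay at +0.028 (SE 0.014, limma adjusted p = 0.121), where 36.9% of 9670 stretches of its length passed, and it passed without Ikzf1+/+ tumour 4 (+0.036, limma adjusted p = 0.0476). The genotypes differed by +0.012 (SE 0.027, Ikzf1+/- minus Ikzf1+/+, limma adjusted p = 0.7995), where 1.31% of stretches passed; without Ikzf1+/+ tumour 4 the difference was -0.0041. It was +0.060 after normexp correction (limma adjusted p = 0.140) and +0.050 with arrays centred on the flanks of Igl (limma adjusted p = 0.166). The proximal flank lay at +0.025 ± 0.012 in Ikzf1+/+ and at -0.018 ± 0.0082 in Ikzf1+/- tumours, without overlap, and the distal flank at +0.024 ± 0.056 and -0.0085 ± 0.020, with overlap. Igl minus both flanks was -0.0022 ± 0.044 and +0.047 ± 0.029 (SD, n = 5 per genotype), with overlap. The high value of Ikzf1+/+ tumour 1 was shared by the distal flank of Igl, at 0.12 in that tumour, while the proximal flank lay at 0.039.

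The J to V profile of Igk was followed by distance from the J and C end. The 3 probes within 25 kb averaged +0.066 ± 0.044 in Ikzf1+/+ and +0.037 ± 0.092 in Ikzf1+/- tumours. The nearest probe, at 70677978 to 70678037 and 1.96 kb from the bound, had 0.30, 0.23, 0.21, 0.0042 and 0.24 in Ikzf1+/+ leukemias 1 to 5 and 0.086, 0.0060, 0.32, 0.049 and 0.045 in Ikzf1+/- leukemias 1 to 5. It was above 0 in 10 of 10 tumours but did not pass (+0.15 over all, SE 0.048, limma adjusted p = 0.0975). Its smallest values, 0.0042 and 0.0060, lay within the SD of probe noise given above. The 3 probes from 25 to 50 kb averaged -0.21 ± 0.074 and +0.013 ± 0.11. The 3 from 50 to 100 kb averaged -0.14 ± 0.48 and +0.093 ± 0.14. In Ikzf1+/+ tumour 1 lay at -0.90 and tumour 4 at -0.31, while tumours 2, 3 and 5 lay at 0.22, 0.15 and 0.15.

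Taken over the 9 probes of the nearest 100 kb, the genotypes did not overlap. The values were -0.30, 0.0044, 0.0053, -0.15 and -0.032 in Ikzf1+/+ leukemias 1 to 5 and 0.083, 0.050, 0.022, 0.032 and 0.054 in Ikzf1+/- leukemias 1 to 5. The Ikzf1+/+ tumours lay lower, tumours 1 and 4 most so, and Ikzf1+/+ tumours 2 and 3 stood next to the lowest Ikzf1+/- tumour. Over the autosomes 4.44% of 100-kb windows had no overlap. This bin was not itself a unit of the fit across the genome. The 100-kb window that covers most of it, 70600001 to 70700000 with 11 probes, 3 of them past the bound, differed by +0.092 (SE 0.039, Ikzf1+/- minus Ikzf1+/+, limma adjusted p = 0.276). In that window the genotypes overlapped, Ikzf1+/+ tumours 2 and 5 lying at 0.020 and 0.018 and Ikzf1+/- tumour 2 at -0.0054. Set against the other 261 probes of Igk, the nearest 100 kb was lower by -0.38, -0.017, -0.042, -0.23 and -0.052 in Ikzf1+/+ leukemias 1 to 5. In Ikzf1+/- leukemias 1 to 5 it was higher by 0.054, 0.0091, 0.024, 0.024 and 0.011. The mean over all tumours of -0.060 was -0.024 without Ikzf1+/+ tumour 1 and -0.013 after normexp correction.

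Farther from J the bins held more probes. From 100 to 200 kb, 7 probes averaged +0.095 ± 0.10 in Ikzf1+/+ and -0.12 ± 0.056 in Ikzf1+/- tumours, without overlap. That separation came from 1 probe, described below: without it, 6 probes averaged -0.091 ± 0.098 and -0.015 ± 0.066, and the genotypes overlapped. From 200 to 400 kb the means were +0.028 ± 0.066 and +0.070 ± 0.039 (17 probes), and from 400 to 800 kb +0.00052 ± 0.085 and +0.0060 ± 0.028 (39 probes). From 800 to 1600 kb they were +0.060 ± 0.047 and +0.031 ± 0.033 (58 probes), and beyond 1600 kb +0.062 ± 0.039 and +0.027 ± 0.029 (140 probes; SD, n = 5 per genotype). The 2 farthest bins, which hold most of the V segment array, were thus above 0 in both genotypes, in 9 of 10 tumours each.

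**Figure D2:**
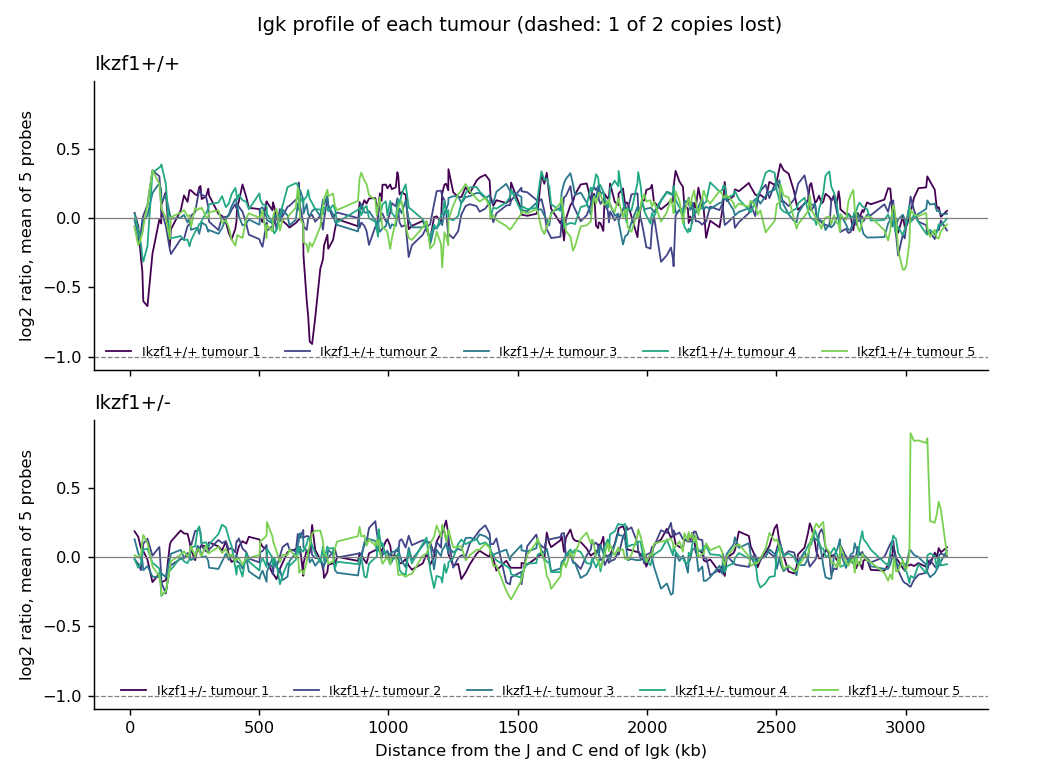
Running mean of 5 probes (log2 ratio, vertical axis) against distance from the J and C end of Igk in kb, 1 line per tumour, Ikzf1+/+ above and Ikzf1+/- below. Ikzf1+/+ tumour 1 has 2 narrow dips, the deeper at -0.91, and the plateau near 3049 kb in Ikzf1+/- tumour 5 comes from 1 probe at 4.43.

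In equal bins of 100 kb along Igk, 26 of 32 Ikzf1+/+ means and 22 of 32 Ikzf1+/- means lay above 0. In 4 bins all 10 tumours were above 0, and in 0 bins all 10 were below. Change points set off a raised segment in 3 Ikzf1+/+ tumours, with no call since the means stayed under 0.3. In Ikzf1+/+ tumour 1 it ran from 67428894 to 69943285 at +0.11 (217 probes) and ended at a low stretch of 4 probes, beyond which the next segment, to 73293531, lay at +0.066. In Ikzf1+/+ tumour 3 it ran from 68014968 to 69456880 at +0.11 (117 probes), and in Ikzf1+/+ tumour 4 from 67957154 to 70376306 at +0.11 (203 probes). In Ikzf1+/+ tumours 2 and 5 and in 5 of 5 Ikzf1+/- tumours no change point fell within Igk.

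The windows of 100 kb that passed as raised had centres 1330 kb or more from the J and C end. Mean values did not follow distance in this way. The bin from 200 to 400 kb averaged +0.049 over all tumours, that from 800 to 1600 kb +0.046 and the farthest +0.044. Of 32 windows with their midpoint in Igk, 7 were higher than the normal DNA over all tumours in limma (21.9%) and 0 lower, against 7.85% higher of 23425 windows over all autosomes. They started at 68000001, 68100001, 68200001, 68300001, 68700001, 68800001 and 69300001, with +0.086, +0.078, +0.060, +0.056, +0.091, +0.073 and +0.11. The highest, from 69300001, had 0.21, 0.065, 0.19, 0.16 and 0.12 in Ikzf1+/+ leukemias 1 to 5 and -0.020, 0.093, 0.13, 0.14 and 0.032 in Ikzf1+/- leukemias 1 to 5 (SE 0.019, limma adjusted p = 0.00374). It was above 0 in 9 of 10 tumours, and the genotypes overlapped. The count was 15 with arrays centred on the flanks of the locus, where 23.9% of all windows were higher in place of 7.85%. With at least 10 probes per window it was 2 of the 11 Igk windows that remained, where 1828 of 18227 windows were higher. It was 4 without Ikzf1+/- tumour 1 or without Ikzf1+/- tumour 5, where 5.31% and 5.07% of all windows were higher. After normexp correction the windows from 68200001, 68300001, 68700001 and 68800001 no longer passed (+0.031, +0.0089, +0.046 and +0.013), and those from 68000001, 68100001 and 69300001 did. The lowest window of Igk, from 69900001 (-0.034, limma adjusted p = 0.649), owed its place to Ikzf1+/+ tumour 1 at -0.54. In Igl 0 of 3 windows passed (limma; 0 at an unadjusted p under 0.05), the lowest from 19000001 at -0.018 and the highest from 19200001 at +0.040. These windows also hold probes beyond the bounds of Igl.

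**Figure D3:**
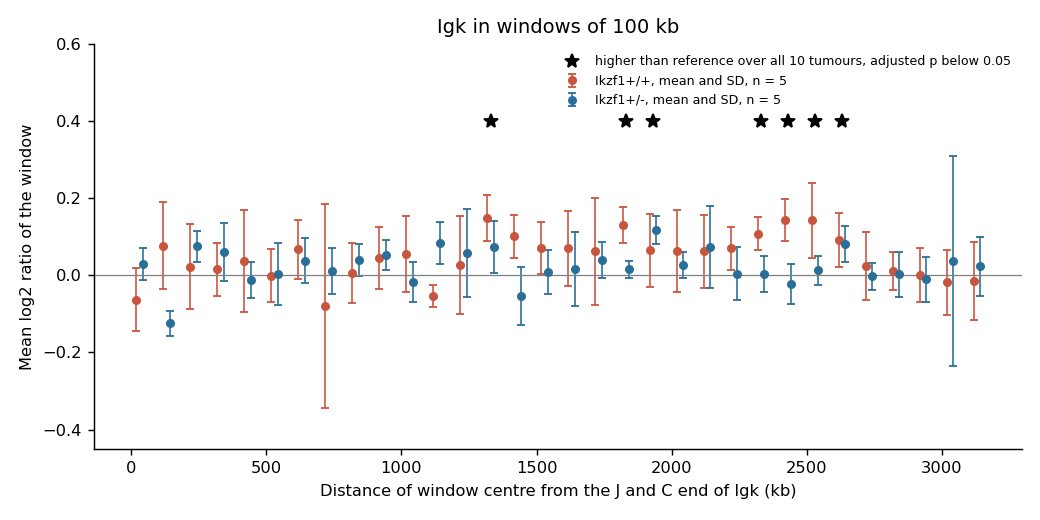
Mean log2 ratio of each 100-kb window of Igk (vertical axis; points and bars, mean and SD of 5 tumours) against the distance of its centre from the J and C end in kb, Ikzf1+/+ in red and Ikzf1+/- in blue. Stars mark the 7 windows above the normal DNA over all tumours (limma adjusted p below 0.05), whose centres lie at 1330 kb or farther.

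The Ikzf1+/+ tumours alone gave 7 raised windows against the normal DNA in limma, where 8.44% of all windows were raised. The Ikzf1+/- tumours alone gave 0, where 0.0470% of all windows were raised after adjustment. At an unadjusted limma p under 0.05, in either direction, they gave 6 of 32, where 3478 of 23425 windows lay. For Ikzf1+/+ these were the windows named above other than that from 68700001, with the window from 69200001 in its place (+0.10, SE 0.028, limma adjusted p = 0.0239). The difference between genotypes passed in 0 of 32 Igk windows in limma, where 5 of 23425 windows passed (0.0213%). At an unadjusted p under 0.05 it was 8 of 32, where 16.6% of all windows lay. Values did not overlap between genotypes in 5 of 32 Igk windows (15.6%), where the share of all windows was the 4.44% given above. Of these, 4 were higher in Ikzf1+/+ and 1, from 69500001, higher in Ikzf1+/-. Among the 4, the window from 70500001 holds the single probe at 70558280 described below. The clearest by adjusted p was the window from 68200001. It had 0.17, 0.11, 0.12, 0.23 and 0.091 in Ikzf1+/+ leukemias 1 to 5 and 0.035, -0.0044, -0.021, -0.10 and -0.017 in Ikzf1+/- leukemias 1 to 5 (difference -0.17, SE 0.034, limma adjusted p = 0.111). All Ikzf1+/+ tumours were higher than all Ikzf1+/- tumours there, yet the difference did not pass over the genome. After normexp correction 2 windows passed, where 83 of 23425 windows were higher and 17 lower in Ikzf1+/-. With windows of 50 kb 1 did, where 7 of 45629 were higher and 12 lower.

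Single probes were tested for changes shorter than a window. Against the normal DNA over all tumours, 9 of 270 Igk probes were higher (3.33%) and 3 lower (1.11%) in limma, where 1.75% and 1.38% of all autosomal probes were. The highest of the called probes covers 70024240 to 70024286. Its Ikzf1+/+ mean was +0.36 ± 0.18 and its Ikzf1+/- mean +0.21 ± 0.093 (SD, n = 5 per genotype, limma adjusted p = 0.00807, above 0 in 10 of 10). Probes at 69339274 and 68178174 followed at +0.27 each, also above 0 in 10 of 10. The others higher, at 68831848, 68050952, 68869012, 69327370, 68579907 and 68554922, lay between +0.19 and +0.25. The lowest, at 70540336 to 70540395 and 140 kb from the J and C end, had -0.47 ± 0.26 and -0.26 ± 0.16 (limma adjusted p = 0.00556, below 0 in 10 of 10), and was not well above background on every array. The probe at 70631150, 48.8 kb from that end, had -0.36 ± 0.14 and -0.15 ± 0.085 (limma adjusted p = 0.00979, below 0 in 10 of 10), and that at 69943226 lay at -0.21. Both low probes near the J end, at 70540336 and 70631150, had neighbours on each side that were not called. The number of probes called in both loci, 14, ranged from 7 to 23 on leaving out 1 tumour. It was highest without Ikzf1+/+ tumour 1 and lowest without Ikzf1+/+ tumour 5, Ikzf1+/- tumour 1 or Ikzf1+/- tumour 4. Over all autosomes 6678 probes were higher and 5281 lower with all tumours, and 11614 and 9282 without Ikzf1+/+ tumour 1. These counts were 2883 and 2093 without Ikzf1+/+ tumour 5, 3324 and 2408 without Ikzf1+/- tumour 1, and 2720 and 2024 without Ikzf1+/- tumour 4. After normexp correction both low probes near the J end no longer passed (-0.12 at 70540336 and -0.11 at 70631150), nor did those at 69943226, 68178174, 68831848, 68869012 and 69327370.

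Probes of one sign in every tumour were few. In Igk 7 of 270 were above 0 in all 10 tumours (2.59%), where 0.976% of autosomal probes were, and 3 were below 0 in all 10 (1.11%), where 0.998% were. In Igl the counts were 0 and 1 of 25. In Ikzf1+/+ tumours alone the probe at 69636717 was also called (+0.36 ± 0.18, limma adjusted p = 0.0260), and in Ikzf1+/- tumours alone the probe at 69724981 (+0.37 ± 0.16, limma adjusted p = 0.0453). In Igl the probe at 19088731 was higher over all tumours (+0.22, SE 0.054, limma adjusted p = 0.0358, above 0 in 9 of 10). The probe at 19105100 to 19105159, the lowest of Igl, had -0.062, -0.42, -0.53, -0.28 and -0.77 in Ikzf1+/+ leukemias 1 to 5 and -0.30, -0.29, -0.19, -0.28 and -0.34 in Ikzf1+/- leukemias 1 to 5. It was below 0 in every tumour (-0.35, SE 0.058, limma adjusted p = 0.00512), least so in Ikzf1+/+ tumour 1. The highest Igl probe, at 19243665, lay at +0.24 (limma adjusted p = 0.0707). By 50-kb bins from the proximal bound, Igl averaged -0.0042, -0.063, +0.063, +0.066 and +0.055 over all tumours, with SDs from 0.053 to 0.11 (n = 10).

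Between genotypes 1 of 270 Igk probes differed in limma and 0 of 25 in Igl, where 0.0884% of all autosomal probes did. At an unadjusted p under 0.05 there were 26 in Igk and 0 in Igl, where 8.53% of all probes lay. The called probe covers 70558280 to 70558339, 122 kb from the J and C end. It had 1.71, 0.92, 0.50, 2.10 and 0.80 in Ikzf1+/+ leukemias 1 to 5 and -0.93, -0.78, -0.56, -0.76 and -0.87 in Ikzf1+/- leukemias 1 to 5. All Ikzf1+/+ tumours were above and all Ikzf1+/- tumours below 0 (difference -1.99, SE 0.22, limma adjusted p = 0.00184). Its neighbours at 122 and 115 kb did not follow: the probe at 70557490 differed by -0.043 and that at 70565220 by -0.064 (limma adjusted p = 0.948 and 0.928). The difference was called on leaving out any 1 tumour, but not with slide as a fixed block, where it rests on 1 tumour against 1 and was -1.73. Without this probe the Igk difference between genotypes was -0.014 in place of -0.022.

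The Cy3 signal also differed at this probe between arrays of the genotypes. Whether this lies in the normal DNA, its labelling or the hybridisation was not tested. Relative to the median of its array, the Cy3 signal of normal DNA was 0.11, 0.041, 0.20, 0.19 and 0.23 on the log2 scale on arrays of Ikzf1+/+ leukemias 1 to 5. On arrays of Ikzf1+/- leukemias 1 to 5 it was 0.97, 0.93, 0.97, 1.01 and 0.98. Both sets were narrow and far apart, although Ikzf1+/+ tumour 5 and Ikzf1+/- tumour 1 shared a slide. A difference of this size in the Cy3 signal (+0.82) or larger was found at 226 of 381894 autosomal probes. These channel signals are background-subtracted and not dye-normalised. The Cy5 signal of tumour DNA was +1.44 ± 0.63 and +0.25 ± 0.15 (SD, n = 5 per genotype), lower in Ikzf1+/-. Over the whole of Igk the normal DNA lay at -0.24 ± 0.024 on Ikzf1+/+ and -0.26 ± 0.015 on Ikzf1+/- arrays, with overlap, and the tumour DNA at -0.21 ± 0.044 and -0.27 ± 0.027, also with overlap.

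**Figure D4:**
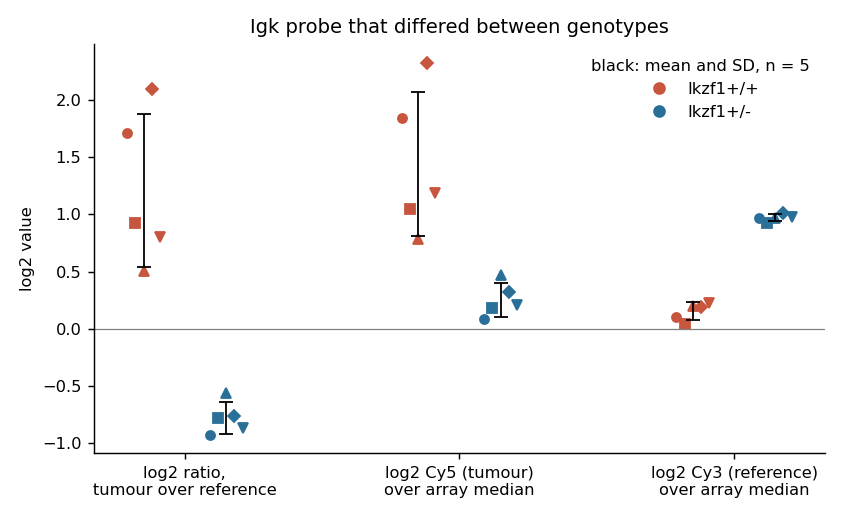
Values of the Igk probe that differed between genotypes in 5 Ikzf1+/+ (red) and 5 Ikzf1+/- tumours (blue): the log2 ratio, and the Cy5 and Cy3 signals as log2 over the array median (vertical axis), with mean and SD in black. The Cy3 signal of normal DNA lies from 0.041 to 0.23 on Ikzf1+/+ and from 0.93 to 1.01 on Ikzf1+/- arrays.

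Ikzf1+/+ tumour 1 held 2 short low stretches in Igk. In the first, 4 consecutive probes between 69962827 and 69990138, 690 to 717 kb from the J and C end, lay at -0.96, -0.53, -1.83 and -0.93. Their mean was -1.06 over 27.3 kb, while the same 4 probes averaged between -0.15 and 0.32 in the other 9 tumours. This segment was called when 3 probes sufficed, and then it was the only call in either locus. Its Cy5 signals, before dye normalisation, were 50.8, 42.8, 19.3 and 39.7, below the lowest of the other tumours at each probe, and its Cy3 signals, 201, 129, 126 and 152, lay within the range of the others. The median Cy5 signal of this array, 88.4, was itself the lowest of all 10, so these signals are not corrected for the brightness of the array. The third probe was not well above background.

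In the second stretch, the 3 probes 87.9, 68.6 and 52.5 kb from the J and C end lay at -1.08, -0.37 and -1.26. At the first and last of these the other 9 tumours ranged from -0.24 to 0.43 and from -0.31 to 0.22, all higher. At the middle probe Ikzf1+/+ tumour 4 was equally low at -0.37. The first and last were not well above background in this tumour, with Cy5 signals of 18.5 and 23.6. The 52 probes between the 2 stretches averaged +0.064 in this tumour, and +0.032 over 51 probes without that at 70558280. Next to the second stretch, however, the 6 other probes from 100 to 200 kb averaged -0.22 in this tumour, the lowest of the 10 tumours, of which Ikzf1+/+ tumour 2 followed at -0.16.

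**Figure D5:**
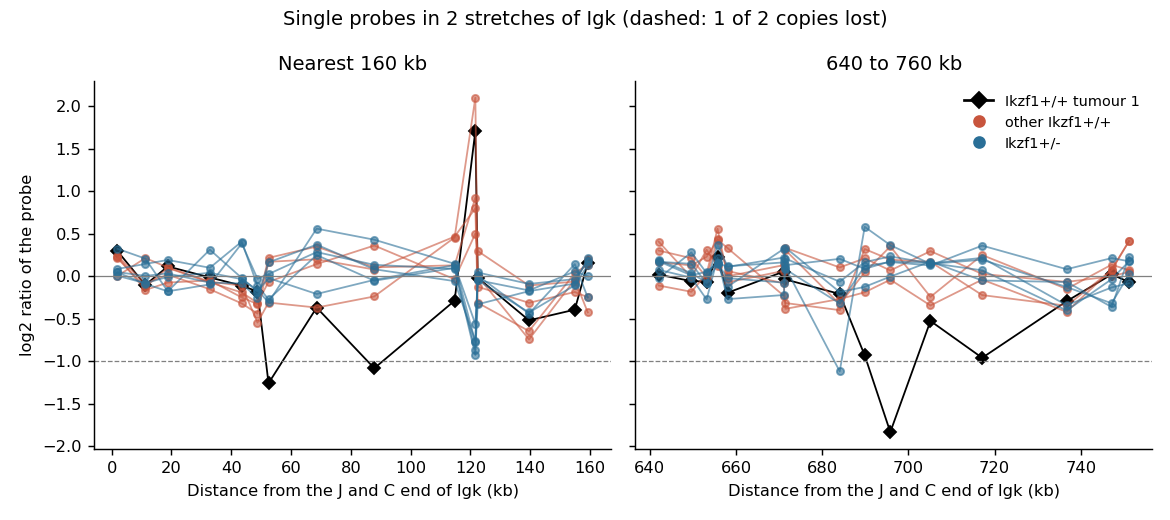
Log2 ratio of single probes (vertical axis) against distance from the J and C end of Igk in kb, in the nearest 160 kb and from 640 to 760 kb; lines join the probes of 1 tumour. Ikzf1+/+ tumour 1 (black) dips to -1.26 and -1.83, and the probe at 122 kb splits Ikzf1+/+ (red) from Ikzf1+/- tumours (blue).

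In runs of 5 probes, no other tumour reached the depth of Ikzf1+/+ tumour 1. Shorter runs were not scanned in this way, and the lowest single Igk probe of the other tumours lay between -1.75 and -0.57. Of 2660 runs of 5 consecutive Igk probes, counted over 10 tumours, 17 averaged -0.3 or less (0.639%), where 0.677% of all autosomal runs did. Of these 9 were in Ikzf1+/+ tumour 1, 4 in Ikzf1+/+ tumour 5, 2 in Ikzf1+/+ tumour 2, and 1 each in Ikzf1+/+ tumour 4 and Ikzf1+/- tumour 5. Runs at 0.3 or more numbered 39 (1.47%), where 1.30% of all runs did so. In Igl 0 of 210 runs reached either limit. The lowest run was -0.91 in Ikzf1+/+ tumour 1 and between -0.37 and -0.19 in the other tumours.

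The highest single value of the light chain loci, 4.43 in Ikzf1+/- tumour 5, belonged to the probe at 67630742 to 67630801, the highest Igk member by mean (+0.41). The other 9 tumours ranged from -0.43 to 0.25 there. Its Cy5 signal of 135 before dye normalisation lay within the 56.5 to 147 of the other arrays, whereas its Cy3 signal of 5.39 lay far under their 99.8 to 132. The high ratio thus came with a dim spot of normal DNA and not with a bright one of tumour DNA. Without this probe the Igk mean of that tumour was 0.027 in place of 0.043.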

How the data were processed

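DNA copy number was measured on 1 two-colour array per tumour, 10 in all. Each deposited scanner file gave Cy5 and Cy3 intensity per spot as processed signals, background-subtracted and dye-normalised by the scanner software; per the file headers the protocol was CGH_105_Jan09_Lowess, the software Agilent Feature Extraction 10.7.3.1 and the build mm9, while the submitters' processing notes name version 10.5.1.1. The scanner's log10 ratio, per the file headers, matched the deposited series matrix of log2 ratios (Cy5 over Cy3, not centred, column medians from -0.019 to -0.00060) with a slope of 1.00, and the matrix served as an alternative.

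Here the log2 ratio of both processed signals was taken. Channel signals printed singly are the scanner's background-subtracted intensities before dye normalisation. Control and outlier-flagged spots were left out, spots of a probe averaged and arrays centred on the autosomal median. Probes, windows of 100 kb with at least 3 probes and stretches as long as each locus were fitted over all autosomes with limma 3.58.1 (R 4.3.3), 5 tumours per genotype, Benjamini-Hochberg adjusted p below 0.05. The test against the normal DNA keeps any dye effect shared by all arrays. Change points (PELT, Python 3.11.15, numba 0.67.0; at least 3 probes, penalty 2 times noise variance times the log of the probe number) were sought per array; both procedures were tested on simulated data. Alternatives were normexp (offset 50, on median spot signals, since mean signals were not used here), loess, the series matrix, flank centring, filters, window sizes, call limits, slide and replicate blocks and leaving out each tumour. The loci, lists and tests were chosen with earlier results of these data known. Named were windows and probes past the threshold in any contrast (at most 10 probes per contrast and locus), the highest and lowest of each locus, the probe nearest J and every call; runs and one-sign counts were added after seeing the data. A planned list of recombination genes was not tested because probes were not assigned to genes. The number of arrays limits the precision.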

Additional observations from a re-analysis of the deposited data

Results flagged for a closer look

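The Igk probe at 70558280 differed between genotypes by -1.99 (Ikzf1+/- minus Ikzf1+/+, limma adjusted p = 0.00184), with all 5 Ikzf1+/+ tumours above 0 and all 5 Ikzf1+/- tumours below. Within the Ikzf1+/+ tumours, 2 members had 1 tumour standing apart from the other 4. At the probe at 69339274, tumour 2 lay at 0.028 and the others between 0.29 and 0.37. In the window from 68100001, tumour 1 lay at 0.31 and the others between 0.059 and 0.13. Dixon's rule at the 95% level, applied to 84 groups of 5 tumours, found these 2. Chance alone gives about 1 in 20.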

How the results depend on the processing

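The difference of Igk between genotypes (-0.022) was +0.012 with slide as a fixed block (1 tumour against 1) and -0.057 after normexp correction, where it passed; it ranged from -0.029 to -0.014 on leaving out 1 tumour. That of Igl (+0.012) ranged from -0.0041 (without Ikzf1+/+ tumour 4) to 0.033 on leaving out 1 tumour and was +0.060 with normexp and +0.050 centred on the flanks. Against the normal DNA, Igk stayed past the threshold under every alternative run, and leaving out 1 tumour gave 0.032 to 0.039; Igl ranged from 0.018 to 0.036. Windows differing between genotypes (0) numbered 2 with normexp, 1 with probes above background only and 1 with 50-kb windows. Over all autosomes, 83 of 23425 windows were higher and 17 lower in Ikzf1+/- with normexp. With probes above background only these were 4 and 2 of 23411, and with 50-kb windows 7 and 12 of 45629. Windows differing from the normal DNA over all tumours (7) numbered 15 centred on the flanks, 2 of 11 with at least 10 probes and 4 to 9 on leaving out 1 tumour. For Ikzf1+/+ alone the count was 7, where 8.44% of all windows were higher. It was 12 with probes above background only (8.71% of all higher) and 12 centred on the flanks of Igk (17.2%). With 50-kb windows, 45629 in place of 23425, it was 11 (4.38%), and with at least 10 probes 1 (11.1%). For Ikzf1+/- alone (0) it was 7 with normexp (3 higher, 4 lower), where 16.1% of all windows were higher and 8.57% lower. Centred on the flanks it was 2, where 2.22% of all windows were higher. Probes differing between genotypes (1) numbered 3 with normexp, where 1652 of 382486 probes were higher and 388 lower, in place of 68 and 270. With slide as a fixed block the called probe differed by -1.73 (1 tumour against 1). Probes differing from the normal DNA numbered 14, where 6678 of all probes were higher and 5281 lower. With slide as a random block they numbered 22 (9696 higher and 7996 lower of all) and with loess 23 (7278 and 5605). They numbered 26 centred on the flanks. The share of all probes under that centring is not given here, so the 26 have no background beside them. The number of probes differing from the normal DNA ranged from 7 to 23 on leaving out 1 tumour. It was 7 without Ikzf1+/+ tumour 5, Ikzf1+/- tumour 1 or Ikzf1+/- tumour 4, where counts of all probes are given above. It was 8 without Ikzf1+/- tumour 5 (2738 higher and 2021 lower of all). Without Ikzf1+/- tumour 2 or 3 it was 9 (3368 and 2507, and 3653 and 2812, of all). A called loss was found in 1 tumour, in place of 0, when 3 probes sufficed. Igk minus its flanks (+0.061) was +0.023 with normexp. Of the 36 single probe and window results named, 20 no longer passed with normexp; in 661 comparisons of these with an alternative, 545 kept direction and side of the threshold, 116 no longer passed and 0 turned sign. The cause of these changes was not tested.

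Same-numbered tumours were not treated as pairs in the main fit. Their deviations correlated between -0.018 and 0.20, 1 of 5 pairs over 0.1. Of 10 tumours, 4 correlated best with their own number, and whether the numbers pair the tumours was not tested. With the replicate number as a block, the Igk difference between genotypes was -0.022 (limma adjusted p = 0.327), 8 probes in place of 14 and 6 windows in place of 7 differed from the normal DNA. A loss of fewer than 5 probes was not called by the main rule, and one of fewer than 3 could not form a segment. The second low stretch of Ikzf1+/+ tumour 1, of 3 probes, formed no segment of its own. Simulated losses held 5 probes or more. A loss in few of the cells is not resolved at this spacing and noise, and low spots near background give only a bound.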
